A study of Mus musculus with 90 samples.

Results

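The Mediator complex was followed from the mature oocyte to the 8-cell embryo through the genes of its subunits. The subunit genes were taken from the deposited count table by their symbols, as every Med gene with a number, together with Ccnc, Cdk8 and Cdk19. This gave 33 of the 24422 genes in the table. All 33 passed the filter on low counts, so that each of them entered every test across 16511 genes.

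Mediator is a large assembly that bridges transcription factors bound to enhancers and promoters with RNA polymerase II. Its head and middle modules contact the polymerase and the general transcription factors, the tail module receives activators, Med14 forms a backbone that joins these modules, and a kinase module of a cyclin-dependent kinase, cyclin C, Med12 and Med13 binds reversibly and keeps the polymerase away. In the mouse, the egg carries a store of maternal messenger RNA that is degraded after fertilization while the genome of the embryo is switched on, with the major wave at the 2-cell stage, so that the RNA of a general transcription complex passes from maternal to embryonic supply in the window studied here.

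Single MII oocytes (MII), 2-cell embryos (2c) and 8-cell embryos (8c) of CD-1 mice were each made into a library that reads transcripts at the 5′ end, in which molecular identifiers mark single molecules and a fixed amount of ERCC RNA was added as a spike-in, and the libraries were pooled on a plate A and a plate B. Oocytes were taken 21 to 23 h after the ovulation-inducing hormone, 2c embryos at 45 to 47 hpf and 8c embryos at 71 to 73 hpf by the labels. Females of both genotypes were superovulated, and the embryos were cultured after collection as zygotes. Wild type (WT) oocytes and embryos came from WT females. The matPlag1KO oocytes came from females without Plag1, which encodes a zinc finger transcription factor, and the matPlag1KO embryos came from such females mated with WT males, so that these embryos carried an intact paternal allele. Each genotype had 16 oocytes, 14 2c embryos and 15 8c embryos. The females that gave each embryo are not named in the labels, so p-values measure the spread between single oocytes or embryos, some of which may share a mother.

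The total count on genes of the 78 libraries used ranged from 92475 to 2502421 (median 422526). The other 12 of the 90 libraries had a median CPM (count scaled to the library's total) under 1 and were left out, among them 3 WT and 3 matPlag1KO 2c embryos. This left 16 WT and 14 matPlag1KO oocytes, 11 and 11 2c embryos, and 15 and 11 8c embryos. The median total was 395023 for WT oocytes and 649899 for matPlag1KO ones, 148473 and 163626 for 2c embryos, and 564009 and 393914 for 8c embryos, so the 2c values rest on the fewest molecules. Plag1 itself had 326 counts in WT oocytes and 4 in matPlag1KO oocytes. At 2c it had 1 count in WT and 91 counts in embryos labelled matPlag1KO (log2 fold change 5.59, adjusted p = 0.000127 in edgeR). This is opposite to the order in oocytes, and all directions at 2c are therefore given for embryos by their label. The paper attributes the Plag1 RNA of such embryos to the paternal allele. It also reports that they stayed longer at this stage, and proposes that their transcriptional program lagged. Embryos were taken at fixed hours, and the part of developmental pace in the subunit differences at 2c was not tested. A single embryo is the unit here, and fewer cells and less RNA per cell cannot be told apart.

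At the 2c stage the labelled genotypes differed in 5 of the 33 subunit genes, and all 5 were lower in embryos labelled matPlag1KO. Med17 was lower by 3.86 on the log2 scale, Med8 by 2.07, Med31 by 1.88, Med11 by 1.38 and Med4 by 1.22. Of all genes tested, 4.92% differed at this stage and 2.62% were lower. Med17 was chosen with its low level at 2c already known, so it adds no independent evidence to this count. Med17, Med8 and Med11 belong to the head module, and Med31 and Med4 to the middle module. No gene of the tail module, of the kinase module or of the subunits between head and tail passed the test, and neither did Med14. In oocytes no subunit gene differed, at a background of 0.781% of all genes, and at 8c none differed at a background of 1.74%. In plate A alone, with 4 WT embryos and 5 labelled matPlag1KO, no gene of the table passed the threshold at 2c. There 6 subunit genes had an unadjusted p under 0.05, and the share of all genes at that level was not counted. In plate B alone 4 subunit genes passed the threshold, all lower, and of all genes 150 were higher and 352 lower. The comparison used edgeR's quasi-likelihood test with TMM scaling and Benjamini-Hochberg adjustment over all genes tested.

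Med17 encodes a central scaffold subunit of the head, which contacts RNA polymerase II. It lies on the minus strand of mm9 at chr9:15064795-15084311. In WT 2c embryos it was at 5.59 CPM in the lowest, 34.7 in the median and 78.1 in the highest embryo, and every one of the 11 had a count. In the 11 embryos labelled matPlag1KO the lowest and the median were 0 CPM and the highest 11.3 CPM, and 3 embryos had a count. The groups overlapped by 1 embryo labelled matPlag1KO that lay above the lowest WT values, and all 11 lay below the WT median.

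The difference in Med17 at 2c was a log2 fold change of -3.86 (SE 0.76, adjusted p = 0.00122 in edgeR). In molecules it was 66 counts against 5, a ratio of 13.5 at equal spike-in counts with a 95% exact interval of 5.52 to 43.1, which covers counting error only. The mean was 33.4 ± 21.8 CPM (SD, n = 11) in WT and 1.72 ± 3.52 CPM (SD, n = 11) in embryos labelled matPlag1KO, a difference of -31.7 CPM in a two-sided permutation test (p = 4.0e-05, 0.00036 adjusted over the 9 comparisons of Med17). Med17 was known from earlier results of these data to be low in embryos labelled matPlag1KO at 2c. Its p-values at 2c therefore describe a gene chosen for that difference, and the adjustment over 9 comparisons does not cover that choice. The difference was present in each plate. In plate A, with 4 WT and 5 matPlag1KO embryos, the difference was -22.2 CPM (exact permutation p = 0.0159, adjusted 0.0476). In plate B, with 7 and 6, it was -36.8 CPM (exact permutation p = 0.00233, adjusted 0.0105). In edgeR the values within plates were -4.34 (adjusted p = 0.449) in plate A and -3.69 (adjusted p = 0.00766) in plate B. Without the 2 highest WT embryos, a choice made after the values were seen, it was -24.2 CPM (permutation p = 6.0e-05).

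In oocytes and 8c embryos Med17 did not pass the test between the genotypes. WT oocytes had 0, 9.48 and 118 CPM in the lowest, median and highest library, and matPlag1KO oocytes 2.13, 16.0 and 95.5 CPM. WT 8c embryos had 2.39, 7.81 and 16.7 CPM, and matPlag1KO 8c embryos 0, 7.21 and 31.7 CPM. The ranges of the genotypes overlapped at both stages, with a log2 fold change of 0.18 (SE 0.44, adjusted p = 1) in oocytes and 0.25 (SE 0.56, adjusted p = 0.934) at 8c. In oocytes the plates differed in direction, with -0.79 (adjusted p = 0.657) in plate A and 1.89 (adjusted p = 0.0798) in plate B, or -11.7 CPM (exact permutation p = 0.558) and 19.0 CPM (exact permutation p = 0.0920). Row A of the wells held WT oocytes in plate A and matPlag1KO oocytes in plate B, and row B the reverse. Within a plate, row and genotype therefore cannot be told apart in oocytes. The genotype difference at 2c less that in oocytes was -4.04 on the log2 scale (SE 0.89, adjusted p = 0.00355), and less that at 8c it was -4.10 (SE 0.96, adjusted p = 0.00945).

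Med17 was then set against the other subunits. Its counts were 0.969% of those of the other 31 members in WT 2c embryos (without Med21, most of whose counts were those of a pseudogene inside it), and 0.0676% in 2c embryos labelled matPlag1KO. For oocytes the share came to 0.871% (WT) and 0.775% (matPlag1KO), and for 8c embryos to 0.330% and 0.364%. Single libraries decided the oocyte shares: without WT oocyte A5 of plate A, which held 170 of the 331 Med17 counts, the share was 0.535%, and without matPlag1KO oocyte A5 of plate B, which held 176 of 320, it was 0.401%. Without embryo D7 of plate B, which held 3 of the 5 counts, the share in 2c embryos labelled matPlag1KO was 0.0306%. Per embryo, the log2 ratio of Med17 to the others was -6.81 ± 1.14 (SD, n = 11, from -8.57 to -5.10) in WT at 2c and -9.76 ± 0.96 (SD, n = 11, from -11.12 to -7.96) in embryos labelled matPlag1KO, with 0.5 added to each count. WT oocytes had a ratio of -8.92 ± 2.09 (SD, n = 16), matPlag1KO oocytes one of -7.86 ± 1.21 (SD, n = 14), WT 8c embryos one of -8.14 ± 0.58 (SD, n = 15) and matPlag1KO 8c embryos one of -8.17 ± 1.02 (SD, n = 11). The sum of all members differed by less than its spread between embryos. Less the counts of a pseudogene inside Med21, it was 3377 ± 467 CPM (SD, n = 11) in WT and 3135 ± 665 CPM (SD, n = 11) in embryos labelled matPlag1KO. Per 1000 spike-in counts it was 65.7 ± 14.2 and 69.6 ± 25.1.

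Med8 encodes a head subunit, which also takes part in a ubiquitin ligase through Elongin B and C. It lies at chr4:118081942-118088429 on the plus strand. In WT 2c embryos it was at 0, 20.8 and 62.5 CPM in the lowest, median and highest embryo, with a count in 9 of 11. In embryos labelled matPlag1KO it was at 0, 0 and 18.5 CPM, with a count in 4 of 11. The groups overlapped, and the difference was -2.07 (SE 0.57, adjusted p = 0.0216). It rested on 47 and 12 counts and was past the threshold in neither plate alone (-2.47, adjusted p = 0.476 in plate A, and -1.89, adjusted p = 0.142 in plate B). It was lost without WT embryo D5 of plate A (adjusted p = 0.0506) or C3 of plate B (adjusted p = 0.0646). In oocytes and at 8c the genotypes differed by 0.65 and -0.50 in Med8, neither past the threshold, and the difference at 2c less that in oocytes was -2.72 (SE 0.67, adjusted p = 0.0109).

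Med31 encodes a small subunit of the middle module that lies close to the polymerase. It lies at chr11:72025226-72029094 on the minus strand. Each 2c embryo had a count, with 31.9, 197 and 257 CPM in the lowest, median and highest WT embryo and 11.3, 38.2 and 114 CPM in those labelled matPlag1KO. The WT embryos were spread widely, and the groups overlapped in the range of 31.9 to 114 CPM. The difference of -1.88 (SE 0.33, adjusted p = 0.000307) was about the same in plate A (-1.97, adjusted p = 0.413) and in plate B (-1.89, adjusted p = 0.00816). Less the difference in oocytes it was -1.77 (SE 0.42, adjusted p = 0.00748), and less that at 8c -2.19 (SE 0.44, adjusted p = 0.00257).

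Med11, a head subunit that pairs with Med22, lies at chr11:70265433-70267228 on the plus strand. It was at 0, 69.1 and 107 CPM in WT 2c embryos and at 0, 16.3 and 87.8 CPM in embryos labelled matPlag1KO. Nearly the whole range was shared by the groups. The difference of -1.38 (SE 0.42, adjusted p = 0.0389) stood in plate B (-2.23, adjusted p = 0.0198) and not in plate A (-0.84, adjusted p = 0.662), and it was past the threshold in only 9 of the 22 fits that left out 1 embryo.

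Med4, a middle subunit that pairs with Med9, lies at chr14:73909856-73918352 on the plus strand. WT 2c embryos had 23.0, 153 and 238 CPM, and embryos labelled matPlag1KO 7.52, 40.8 and 228 CPM. Most embryos labelled matPlag1KO were low, but the highest reached the upper WT values. The difference of -1.22 (SE 0.33, adjusted p = 0.0184) was again past the threshold in plate B (-1.97, adjusted p = 0.00615) and not in plate A (-0.57, adjusted p = 0.752).

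**Figure D1:**
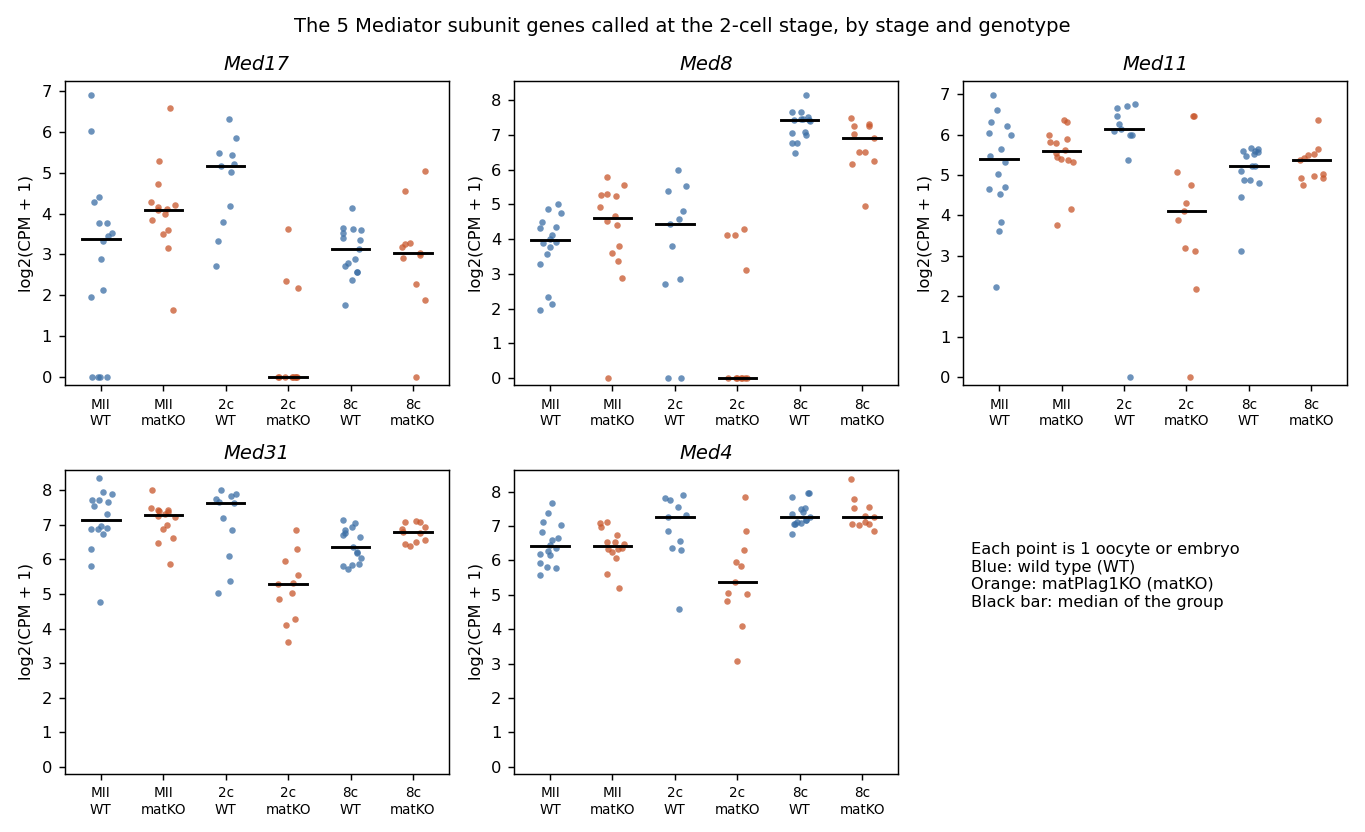
Levels of the 5 subunit genes that differed at 2c, as log2(CPM + 1) on the y axis for each oocyte or embryo, by stage and genotype on the x axis, with WT in blue, matPlag1KO in orange and a bar at the median. The 11 2c embryos labelled matPlag1KO lie at 0 to 11.3 CPM for Med17, against 5.59 to 78.1 CPM in the 11 WT embryos, and the genotypes overlap broadly in oocytes and at 8c.

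The plots of single embryos also give the courses of the 5 genes over the stages. Relative to all messenger RNA, Med8 was at a median of 14.6 CPM in WT oocytes and 172 CPM in WT 8c embryos, with 88.3 CPM in the lowest 8c embryo above the 31.5 CPM of the highest oocyte. Med31 had the opposite order, with 141 CPM in oocytes and 81.5 CPM at 8c, and the ranges of these stages overlapped. For Med17 the WT median was highest at 2c, whereas its highest single values were in oocytes.

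The subunits that did not pass the test at 2c are shown by module in the plot of genotype differences. Over the 7 head genes the median log2 fold change at 2c was -1.38, and 5 were negative. Over the 9 middle genes it was -0.80, and 8 were negative. It was 0.00 over the 5 tail genes, 0.14 over the 4 between head and tail, 0.25 over the 7 of the kinase module and 0.27 for Med14. The median of all 33 was -0.23, or -0.22 without Med17, with 19 negative, against 0.12 over all genes tested. Whether the modules differ was not tested, and since 3 of the head genes and 2 of the middle genes are those described above, these medians are no separate evidence.

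Med25, a tail-associated subunit that binds activation domains, was nearest to the threshold among the others. It was at 6.26, 16.9 and 108 CPM in WT and at 23.1, 120 and 185 CPM in 2c embryos labelled matPlag1KO, with a log2 fold change of 1.56 (SE 0.50, adjusted p = 0.0501) that was 1.26 in plate A and 1.69 in plate B. Med7, which forms the hinge of the middle module with Med21, was at 5.75, 38.2 and 78.8 CPM against 0, 12.998 and 32.3 CPM (-1.30, adjusted p = 0.0640). Its genotype difference at 2c less that at 8c was -1.998 (SE 0.57, adjusted p = 0.0379). Med1, which receives nuclear receptors, had a value of 0.97 (adjusted p = 0.0751) with 1.61 in plate A and 0.42 in plate B. Both Med25 and Med1 passed the threshold in DESeq2 and Med7 did so too, which gave 8 genes there, 2 higher and 6 lower. Of all genes, DESeq2 called 440 higher and 586 lower.

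**Figure D2:**
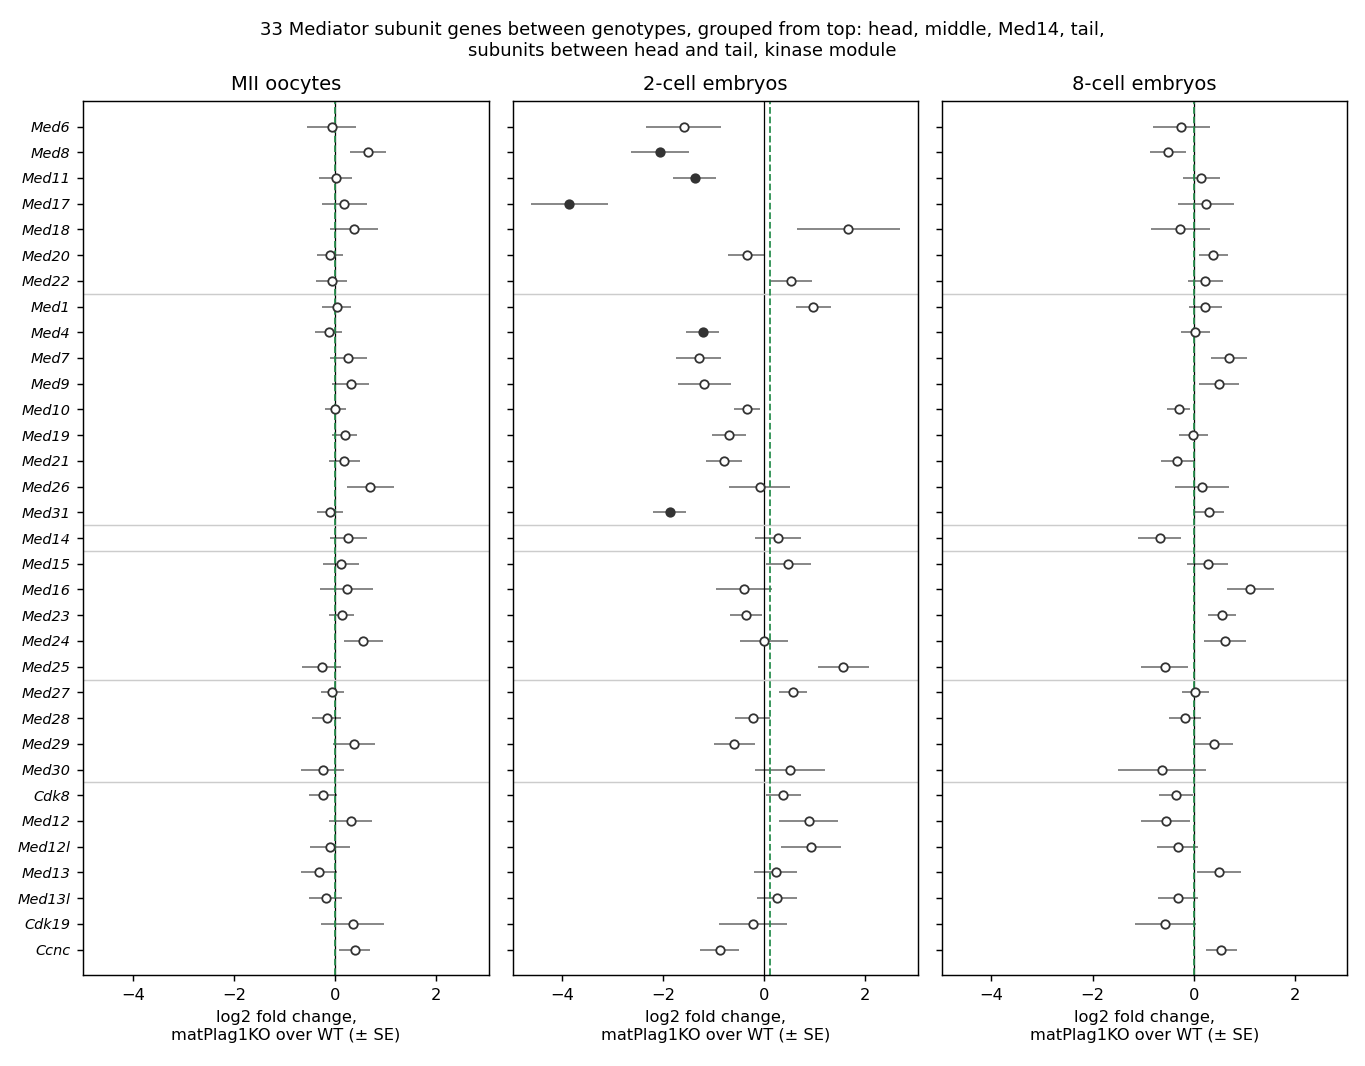
Log2 fold change of matPlag1KO over WT, with its standard error, for each of the 33 subunit genes at MII, 2c and 8c, ordered by module, where filled points passed an adjusted p of 0.05 in edgeR, open points did not, and the dashed line is the median of all genes tested. The filled points are the 5 genes at 2c, from -3.86 for Med17 to -1.22 for Med4.

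In oocytes the log2 fold changes of the 33 genes lay between -0.31 and 0.70 (median 0.12), and none had an unadjusted p under 0.05, against 10.2% of all genes. At 8c they lay between -0.67 and 1.12 (median 0.04), and 2 had an unadjusted p under 0.05, against 14.3%. DESeq2 also called no subunit gene at either stage. As a test of the difference between stages, 3 of the 33 genes, Med17, Med8 and Med31, had a lower genotype difference at 2c than in oocytes, at a background of 3.31% of all genes called. The same number, Med17, Med31 and Med7, had a lower one at 2c than at 8c, at a background of 2.30%. Both counts include Med17, which was chosen for its low values in these same 2c embryos.

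The scaling affects the count of calls at 2c. With DESeq2's size factors the log2 fold change of the median gene moved from 0.12 to 0.31, the split of all calls moved from 379 higher and 433 lower to 721 higher and 273 lower, and 6 subunit genes were called, Med1 and Med25 higher and Med17, Med31, Med4 and Med8 lower. With spike-in totals as the library size the median was 0.28, all calls were 191 higher and 94 lower, and Med17 and Med31 were called. With the 22 embryos of the 2c stage fitted alone, 4 were called, Med1 and Med25 higher and Med17 and Med31 lower, while Med4 (adjusted p = 0.0534), Med11 (adjusted p = 0.0627) and Med8 (adjusted p = 0.0864) did not pass. Of all genes, this fit called 402 higher and 361 lower. With each of these 3 scalings and in this fit, Med17 and Med31 kept their direction and their call.

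Summed markers of maternal RNA and of other cells were higher at 2c in embryos labelled matPlag1KO, with overlapping ranges. A list of 8 oocyte genes had a summed median of 3468 CPM (1558 to 6735) in WT and 5263 CPM (2439 to 8749) in 2c embryos labelled matPlag1KO, with all 8 detected in both. This order was already present in oocytes, at 8286 CPM (5868 to 34796) in WT and 24985 CPM (5395 to 32507) in matPlag1KO. A list of 2c genes, 5 of 6 in the table, had 190 CPM (78.1 to 976) and 401 CPM (162 to 579), with 3 of the 5 detected in each group. A list of 8 genes of the 8c embryo had 355 CPM (175 to 762) and 403 CPM (154 to 1228) at 2c. In 8c embryos that list had 1856 CPM (815 to 3445) in WT and 688 CPM (317 to 2895) in matPlag1KO. For 9 cumulus and granulosa cell genes the sums were 22.4 CPM (5.63 to 59.2) and 63.8 CPM (9.22 to 143), with 5 of the 9 detected in each group and Ptx3 and Amh at 0 in every 2c embryo. Their part in the subunit differences was not tested.

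The bases just upstream of the start are shown for 3 of the 5 genes, as the sequence in which motifs were looked for. The windows are read from mm9 in the direction of the gene and end at the base before the annotated start, with up to 200 bases and no base of another gene. Capitals mark matches to the motifs named after them.
Med17, chr9:15084312-15084511, minus strand: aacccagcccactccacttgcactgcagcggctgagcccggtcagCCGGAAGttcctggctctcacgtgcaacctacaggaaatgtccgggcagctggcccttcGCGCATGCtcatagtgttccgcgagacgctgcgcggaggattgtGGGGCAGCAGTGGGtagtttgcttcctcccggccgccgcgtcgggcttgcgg
Med4, chr14:73909656-73909855, plus strand: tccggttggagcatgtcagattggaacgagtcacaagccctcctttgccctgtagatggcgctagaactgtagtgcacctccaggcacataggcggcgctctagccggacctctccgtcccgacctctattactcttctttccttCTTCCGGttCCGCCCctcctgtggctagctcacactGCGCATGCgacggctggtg
Med11, chr11:70265233-70265432, plus strand: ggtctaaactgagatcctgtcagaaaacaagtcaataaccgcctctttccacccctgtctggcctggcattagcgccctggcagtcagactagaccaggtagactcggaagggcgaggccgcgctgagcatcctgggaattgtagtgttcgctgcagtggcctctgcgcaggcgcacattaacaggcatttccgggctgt
For Med31 no base is shown because its start lies inside a gene of the other strand, 4930563E22Rik.

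Matches are named for the 3 windows shown and for Med31, and otherwise given as counts. Searched on both strands of 200-base windows, the ETS family motif CCGGAAG was found for Med17 and Med4, for 7 of the 33 members and for 7.99% of 24320 genes. The NRF1 motif GCGCATGC was found for Med17 and Med4, for 3 members and for 2.6% of all genes. The SP1 family motif GGGCGG was found in 21 members and in 39.3% of all genes, with Med4 among them, and the TATA box TATAAA in 1 member and in 9.75%. A bipartite PLAG1 motif, GNGGC with A or G as N followed after 6 to 8 bases by GGG, was found in 8 members and in 21.3% of all genes, with Med17 among them. Windows of Med11 and Med31 held none of these letters. A match is a description of the sequence, not of binding.

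The study lists sites for a longer element with a PLAG1 site, which belongs to the B1 repeat. Its list covers only genes whose activation it found delayed in matPlag1KO embryos. Med4 is the only subunit gene on that list. Genes that were not lower at 2c could not be listed, so the presence of Med4 is no evidence separate from its lower level. The 31-base consensus of those sites and the sequence at Med4 and near Med11 are shown because Med4 and Med11 were lower at 2c. Capitals mark bases that differ from the consensus.
Consensus: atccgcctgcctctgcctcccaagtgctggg
Med4, chr14:73909194-73909224: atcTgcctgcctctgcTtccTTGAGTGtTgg
Med11, chr11:70264216-70264246: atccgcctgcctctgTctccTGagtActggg
The Med4 site differs from the consensus at 10 positions, and the one at Med11, on the strand opposite to the gene, at 4. From 2000 bases before to 500 bases after the start and with at most 5 differences on either strand, a site was found in 8 of 33 members (24.2%) and in 20.4% of all genes. Of the 5 genes lower at 2c, Med11 was the one with such a site, and Med17 had no stretch with fewer than 12 differences.

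The genes next to Med17 were examined as well. Within 200 kb, 7 other genes are annotated. Taf1d, which encodes a subunit of a factor for RNA polymerase I at chr9:15110658-15121441, had a log2 fold change of -1.04 at 2c (SE 0.32, adjusted p = 0.0434). The gene 4931406C07Rik, between them, was at -0.99 (adjusted p = 0.0569). It overlaps the start of Taf1d on the other strand, and had 3663 counts against 3764 for Taf1d. The counting took reads of both strands, as given below, so the values of Taf1d and 4931406C07Rik may not be separate. Cep295 was at 0.82 (adjusted p = 0.245), Hephl1 at 2.55 (adjusted p = 0.247) and Vstm5 at 0.57 (adjusted p = 0.854), and Scarna9 and Gm25500 had 1 count and 0 counts in all libraries.

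Of 26 genes that work with Mediator in initiation and elongation, 1 differed at 2c, at the background of 4.92% of all genes. This was Supt4a, a subunit of the elongation factor DSIF, at -1.28 (adjusted p = 0.0149). In oocytes and at 8c edgeR called none of the 26, with 4 at an unadjusted p under 0.05 at each of these stages, against 10.2% and 14.3% of all genes. Aff4, a scaffold of the super elongation complex, had a genotype difference at 2c less that at 8c of -1.94 (adjusted p = 0.0469).

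Between stages, each library was set relative to its spike-in RNA, so that a value is an amount per embryo relative to a fixed addition. From MII to 2c in WT, 24 of the 33 subunit genes fell, 4 rose and 5 did not pass the test, with a median log2 fold change of -1.59. Of all genes 51.3% fell and 14.1% rose, with a median of -1.46. In matPlag1KO 27 fell and 2 rose, with a median of -2.22, against 50.3% and 13.5% of all genes and a median of -1.42. The steps in WT and in matPlag1KO use separate libraries. The difference between these steps was tested above on TMM factors, and was not tested on the spike-in scale. Over this step the 9 cumulus and granulosa cell genes had a summed median of 256 CPM (15.1 to 557) in WT oocytes against 22.4 CPM at 2c, and of 484 CPM (138 to 666) against 63.8 CPM in matPlag1KO, and their part in the falls was not tested.

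The falls were largest for Med18, Med22, Med15 and Med30. Med22, which pairs with Med11 in the head, was at 2.25, 6.88 and 13.4 counts per 1000 spike-in counts in the lowest, median and highest WT oocyte and at 0, 0.274 and 2.10 in WT 2c embryos. The stages did not overlap, and it fell by 3.62 on the log2 scale (SE 0.43, adjusted p = 1.3e-11) in WT and by 3.41 (SE 0.43) in matPlag1KO. Med15, a tail subunit that binds activators through its KIX domain, was at 3.28, 12.9 and 111 in WT oocytes and 0.889, 1.73 and 3.23 at 2c. The ranges were close but did not overlap. It fell by 3.60 (SE 0.58) in WT and by 3.15 (SE 0.57) in matPlag1KO.

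Med30, a subunit found in animals and placed between head and tail, was at 0.558, 1.30 and 3.20 in WT oocytes and at 0, 0 and 0.351 at 2c, without overlap. It fell by 3.45 (SE 0.64) in WT and by 2.91 (SE 0.61) in matPlag1KO. Med18, a head subunit that pairs with Med20, had 98 counts in the WT oocytes and 2 counts in the WT 2c embryos. Its ratio was 31.7 at equal spike-in counts, with a 95% exact interval of 8.55 to 266. In 8c embryos it had 51 counts, 15.4 times the 2c value with an interval of 4.06 to 131.

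Of the 4 genes that rose from MII to 2c in WT, Med29 had the widest change. Med29 encodes a subunit between head and tail and lies at chr7:29170266-29177709 on the minus strand. It was at 0, 0.287 and 2.44 counts per 1000 spike-in counts in WT oocytes, at 5.71, 13.5 and 34.8 in 2c embryos and at 7.18, 12.1 and 16.5 in 8c embryos. The lowest 2c embryo was above the highest oocyte. It rose by 4.80 (SE 0.55, adjusted p = 2.4e-12) in WT and by 3.49 (SE 0.54, adjusted p = 5.0e-08) in matPlag1KO, and its value from 2c to 8c was -0.40 in WT (adjusted p = 0.525) and 0.52 in matPlag1KO (adjusted p = 0.432). Paf1, a gene of an elongation complex that starts 306 bases away on the other strand, had a value of -0.60 from MII to 2c in WT (adjusted p = 0.339).

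Cdk19, the paralog of Cdk8, was at 0, 0 and 0.243 in WT oocytes, where 6 of 16 had a count, and at 0, 0.303 and 0.821 at 2c. It rose by 2.16 (SE 0.70, adjusted p = 0.00561) in WT, and its value in matPlag1KO was 1.08 (adjusted p = 0.168). Med16, a tail subunit, rose by 1.35 in WT (SE 0.57, adjusted p = 0.0325), from a median of 0.106 to 0.479, and was past the threshold in neither plate alone. Its value in matPlag1KO was 0.55 (adjusted p = 0.411).

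**Figure D3:**
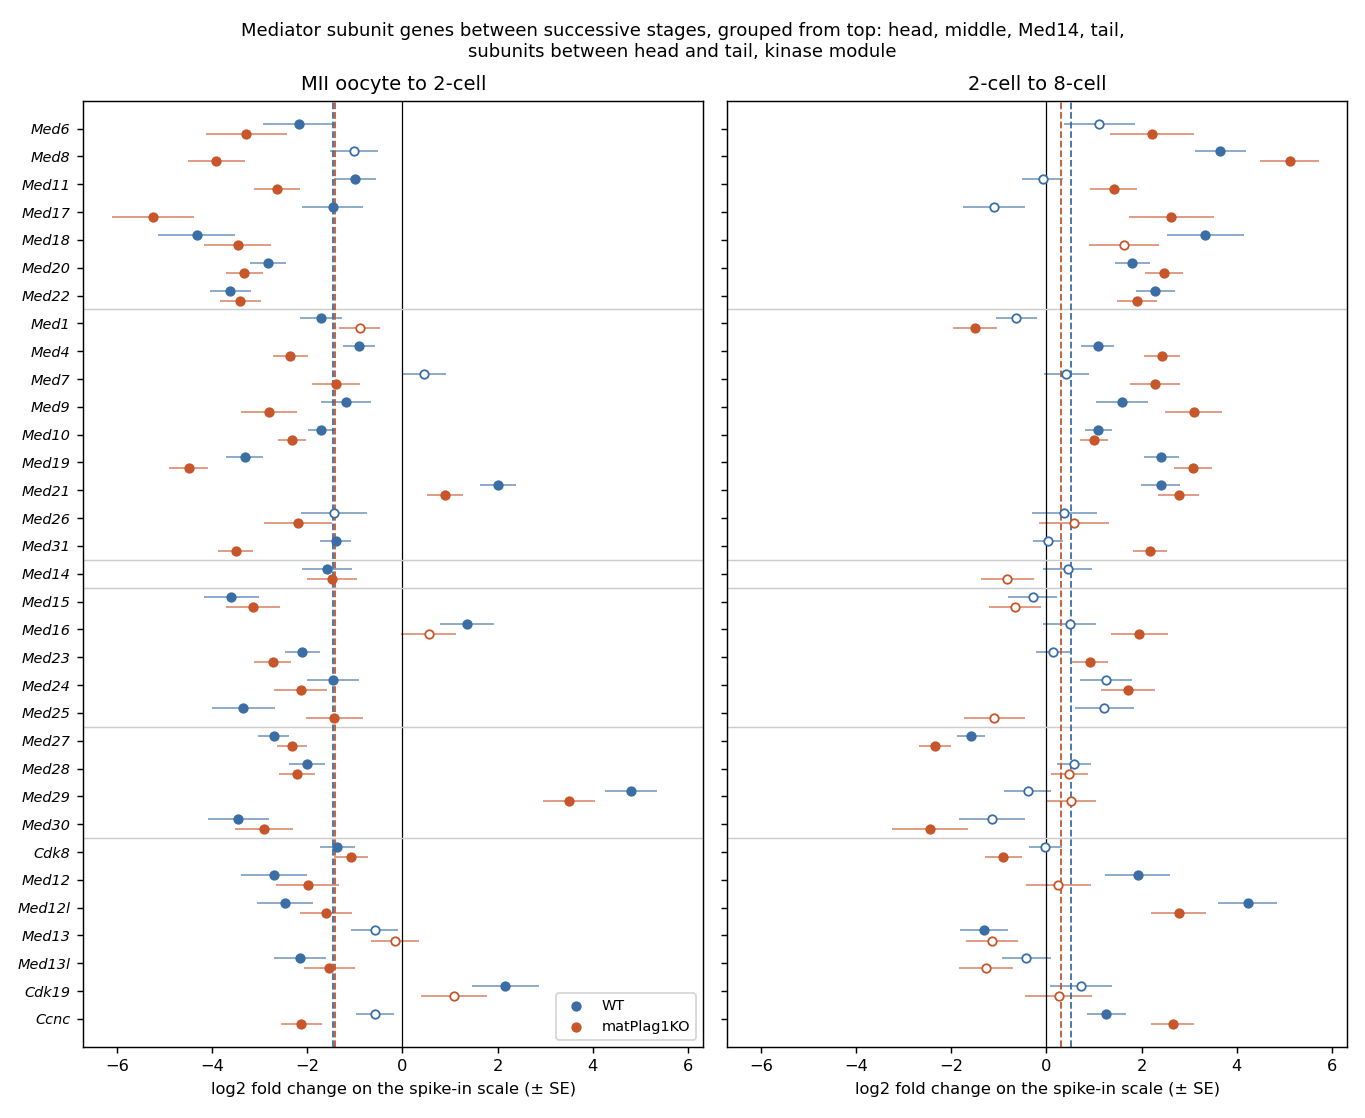
Log2 fold change between successive stages on the spike-in scale, with its standard error, for the 33 subunit genes in WT (blue) and matPlag1KO (orange), ordered by module, with filled points for genes past an adjusted p of 0.05 in edgeR. From MII to 2c most points lie left of 0 and Med29 lies farthest right at 4.80 in WT, and from 2c to 8c Med12l and Med8 lie farthest right in WT at 4.23 and 3.66.

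The fourth gene, Med21, was not a reading of the subunit alone. Med21 lies at chr6:146591101-146599122 on the plus strand and holds the pseudogene Gm6654 on the opposite strand. Of the 28820 counts of Med21 in the 90 libraries, Gm6654 had 27260, or 94.6%, and its count was at most that of Med21 in 90 of 90 libraries. The same held for 59 of 59 pairs in which a gene with at least 500 counts lies inside a single gene of the other strand, so the counting took reads of both strands and of introns.

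As deposited, Med21 was at a mean of 4.42, 17.8 and 94.3 counts per 1000 spike-in counts in WT oocytes, 2c and 8c embryos. It rose by 2.01 (SE 0.37) from MII to 2c and by 2.40 (SE 0.41, adjusted p = 6.9e-07) from 2c to 8c. Less the counts of Gm6654 the means were 3.61, 0.354 and 0.748, so that Med21 fell by 3.29 from MII to 2c (SE 0.58, adjusted p = 9.0e-07) and had a value of 1.03 from 2c to 8c (adjusted p = 0.117). In matPlag1KO it fell by 3.78 in the first step (adjusted p = 7.8e-08) with the pseudogene subtracted. This subtraction was chosen after the values were seen. Read this way, Med21 joins the 24 genes that fell in WT.

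**Figure D4:**
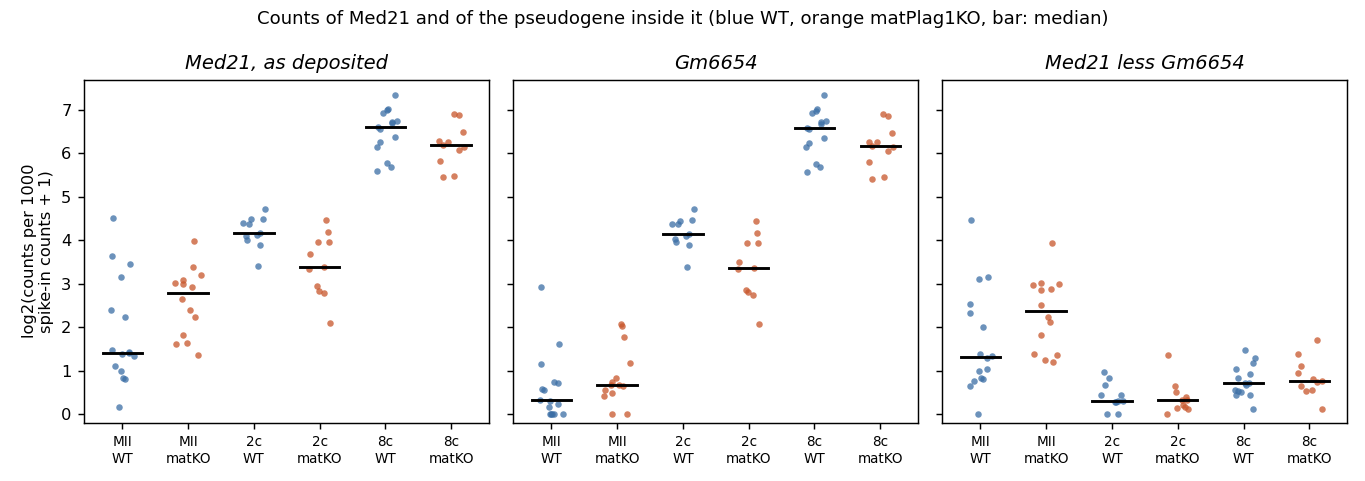
Counts per 1000 spike-in counts, as log2(value + 1) on a shared y axis, for Med21 as deposited, for the pseudogene Gm6654 inside it and for their difference, by stage and genotype, with a point for each oocyte or embryo and a bar at the median. The first and second panels rise together to a WT mean of 94.3 for Med21 at 8c, and the third falls from a WT mean of 3.61 in oocytes to 0.354 at 2c.

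Other subunit genes share bases with a neighbour. Med19 overlaps Tmx2 on the other strand by 427 bases, and their totals of 6453 and 6457 counts cannot be told apart. Its fall by 3.32 (SE 0.38) from MII to 2c and its rise by 2.41 (SE 0.37) from 2c to 8c in WT are therefore those of the locus. Med13 overlaps Brip1os by 38729 bases, and Med12l holds the receptor genes P2ry12 and P2ry14, whose counts were 11.1% and 8.32% of its own. Further annotated pseudogenes without an entry in the table lie inside Med1, Med6, Med20, Med27 and Cdk8, so that part of their counts may come from these. The same holds for Med15, which contains Rpl26-ps4 on the other strand, a pseudogene by its name but annotated as protein coding.

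From 2c to 8c in WT, 12 subunit genes rose and 2 fell, with a median of 0.59, and of all genes 31.9% rose and 16.2% fell with a median of 0.53. In matPlag1KO 18 rose and 4 fell, with a median of 1.42, against 29.1% and 19.5% of all genes and a median of 0.30. The 5 genes that were lower in matPlag1KO at 2c are among the 18. The 18 share the 2c embryos labelled matPlag1KO with the comparison of the genotypes, so this is no independent result.

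Med12l had the widest rise in WT, by 4.23 (SE 0.62, adjusted p = 1.5e-08), and rose by 3.79 (adjusted p = 3.3e-07) with the genes inside it subtracted. Med8 rose by 3.66 (SE 0.54, adjusted p = 1.7e-08) in WT and by 5.11 (SE 0.62) in matPlag1KO. In WT it was at 0, 0.358 and 1.24 counts per 1000 spike-in counts at 2c and at 3.19, 5.64 and 10.1 at 8c, so that the stages did not overlap. Med18 and Med19, described above, completed the 4 widest rises.

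The 2 genes that fell from 2c to 8c in WT were Med27 and Med13. Med27, a subunit between head and tail, had 31.2, 61.2 and 112 counts per 1000 spike-in counts in WT oocytes, 3.40, 9.93 and 18.5 in 2c embryos, and 1.56, 3.003 and 6.73 in 8c embryos. It fell at both steps, by 2.71 (SE 0.32) and by 1.58 (SE 0.30, adjusted p = 4.7e-06) in WT, and by 2.32 (SE 0.32) and 2.34 (SE 0.33) in matPlag1KO. The oocytes were above every 2c embryo in WT, whereas the 2c and 8c ranges overlapped. Med13 fell by 1.31 (SE 0.51, adjusted p = 0.0266) in WT, and its value in matPlag1KO was -1.15 (adjusted p = 0.0732).

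Relative to spike-in RNA, Med17 in WT fell by 1.47 between MII and 2c (adjusted p = 0.0401), whereas TMM scaling gave 0.77 (adjusted p = 0.196), the opposite direction. From 2c to 8c it had a value of -1.10 in WT (adjusted p = 0.161), whereas TMM scaling gave -1.99 (adjusted p = 0.00119 in edgeR), past the threshold. In matPlag1KO Med17 fell by 5.25 (SE 0.86) from MII to 2c and rose by 2.63 (SE 0.89, adjusted p = 0.0109) from 2c to 8c. On TMM scaling these were -3.27 and 2.11, both past the threshold.

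Apart from Ccnc, the genes of the kinase module form pairs of paralogs, and these did not follow one course. Cdk8 was at 0.981, 2.73 and 9.44 counts per 1000 spike-in counts in WT oocytes, 0.556, 1.46 and 2.37 in 2c embryos, and 0.364, 1.20 and 2.56 in 8c embryos. It fell by 1.37 (SE 0.36) from MII to 2c and had a value of -0.02 from 2c to 8c (adjusted p = 0.989). Cdk19 rose in the first step, as given above, and had a value of 0.73 in the second (adjusted p = 0.365).

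Med12, which activates the kinase, was at 0, 0.928 and 19.3 in WT oocytes, 0, 0.240 and 1.00 in 2c embryos, and 0.189, 1.00 and 3.98 in 8c embryos. It fell by 2.70 (SE 0.69) and rose by 1.92 (SE 0.68, adjusted p = 0.0155). Its paralog Med12l was at 0, 0.591 and 2.90, at 0, 0.103 and 0.431 and at 0.378, 1.82 and 8.82, and fell by 2.47 (SE 0.59) before the rise given above. Both had their lowest median at 2c.

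Med13, which tethers the kinase to the core, was at 0.121, 0.810 and 8.77 in WT oocytes, 0.119, 0.722 and 2.16 in 2c embryos, and 0.0792, 0.283 and 1.24 in 8c embryos. Its value in the first step was -0.58 (adjusted p = 0.297). Med13l was at 0.685, 3.13 and 62.8, at 0.722, 1.46 and 3.01 and at 0.0910, 0.871 and 4.15. It fell by 2.16 (SE 0.54) in the first step and had a value of -0.43 in the second (adjusted p = 0.513). The highest oocyte values of these genes were far above the median, and the WT oocytes as a group varied most.

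**Figure D5:**
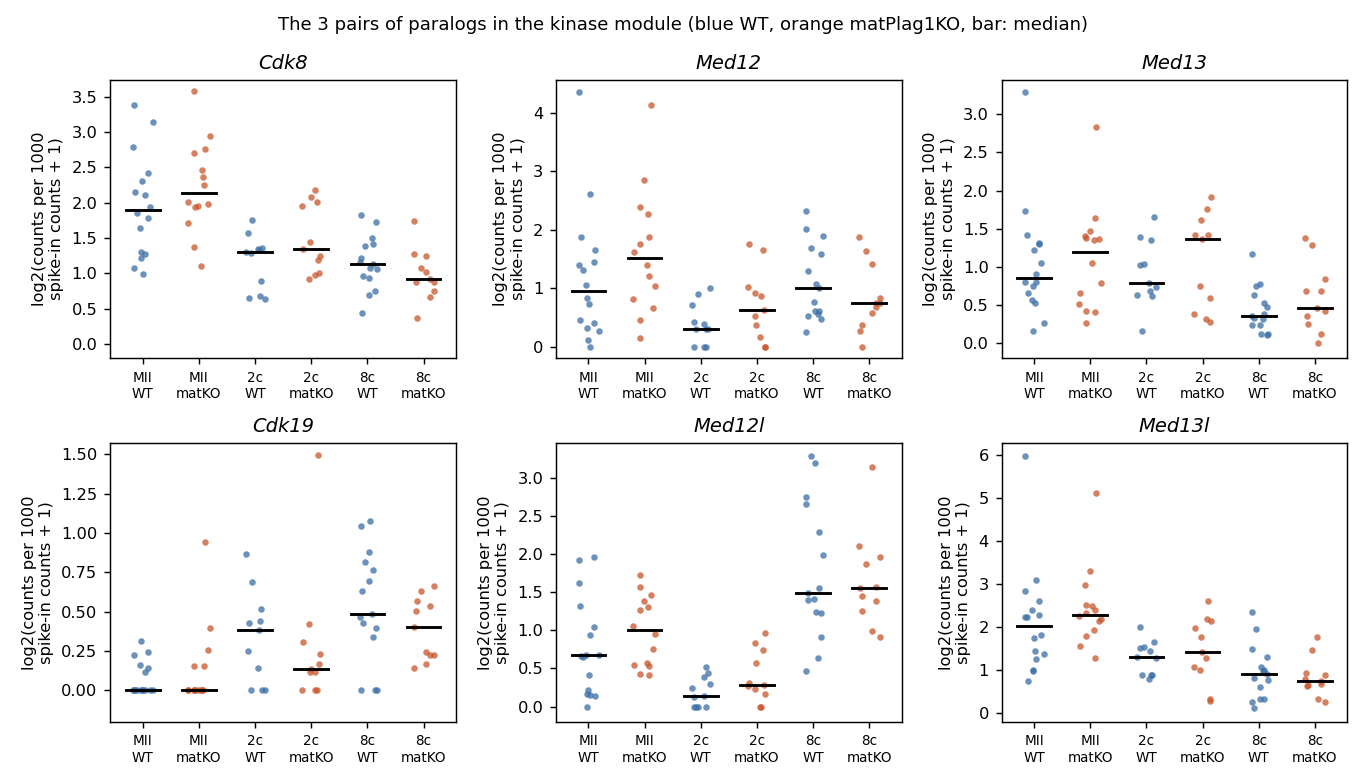
Counts per 1000 spike-in counts, as log2(value + 1), for Cdk8 and Cdk19, Med12 and Med12l, and Med13 and Med13l, by stage and genotype, with a point for each oocyte or embryo, a bar at the median and a separate y axis for each gene. In WT the median of Cdk8 goes from 2.73 in oocytes to 1.20 at 8c while that of Cdk19 goes from 0 to 0.400, and Med12 and Med12l both have their lowest median at 2c.

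Scaled by TMM, which sets the change of most genes near 0, the same steps look different in direction for many members. From MII to 2c in WT 7 members were called higher and 8 lower, at a median of -0.03 over all genes, and from 2c to 8c 7 higher and 12 lower, at -0.12. In matPlag1KO the numbers were 6 and 12 at 0.14, and 12 and 9 at -0.31. The share of all genes called at TMM scaling was not counted for these steps, so the member counts have no background beside them. Med29, Cdk19, Med16 and Med21 were higher at 2c than at MII and Med18, Med22, Med15 and Med30 lower under both scalings, and after 2c the rises of Med12l, Med8, Med18 and Med19 and the falls of Med27 and Med13 also held under both. On the TMM scale Med29 changed by 6.55 and Med12l by 3.30.

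The genes that work with Mediator were counted by stage as well. From MII to 2c in WT 14 of the 26 fell and 5 rose, against 51.3% and 14.1% of all genes, and from 2c to 8c 8 rose and 4 fell, against 31.9% and 16.2%. In matPlag1KO 18 fell and 3 rose, against 50.3% and 13.5%, and then 11 rose and 3 fell, against 29.1% and 19.5%. The summed Mediator counts, less Gm6654, were 231 ± 154 per 1000 spike-in counts in WT oocytes (SD, n = 16), 65.7 ± 14.2 at 2c (SD, n = 11) and 91.1 ± 18.7 at 8c (SD, n = 15), and in matPlag1KO 297 ± 87.6 in oocytes (SD, n = 14), 69.6 ± 25.1 in 2c embryos (SD, n = 11) and 97.9 ± 45.7 in 8c embryos (SD, n = 11). As a share of all messenger RNA they were 4030 ± 843, 3377 ± 467 and 2490 ± 216 CPM in WT, so that on both scales the oocyte mean was the highest.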

How the data were processed

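Single oocytes and embryos were made by the authors into 5′-end libraries, with identifiers for single molecules and added ERCC RNA, on plates A and B, each of which held every stage and genotype. Per the study's methods the reads were mapped to mm9 with TopHat and counted per gene with HOMER. The authors deposited unnormalized counts of 24422 genes and of 92 spike-in RNAs for 90 libraries. Whether the counting used strand is not given in the sources used here.

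Stage, genotype, plate and well were read from the sample labels. Libraries with a median CPM under 1 were left out (12 of 90). Tested genes reached 1 CPM in 5 or more of the other 78 libraries. The 6 groups were fitted together in edgeR 4.0.16 (R 4.3.3) with the quasi-likelihood test and Benjamini-Hochberg adjustment, and a gene was called at an adjusted p under 0.05. Genotypes were compared on TMM factors, and stages on the spike-in total of each library. No library kept had 0 spike-in counts. The standard error is the log2 fold change divided by the square root of F. Totals of counts set the precision, and intervals cover counting error only. Med17 was also compared by two-sided permutation tests in scipy 1.17.1 (100000 resamples, exact below 10 libraries a group). The steps were tested on simulated data.

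Values are given for Med17, for members called between genotypes, for the 4 widest called changes in each direction at each WT stage step, and for the paralog pairs of the kinase module. Med7, Med25 and Med1 were added after their values were seen. The members, modules, partner genes and marker lists were chosen with earlier results of these data known, including that for Med17 at 2c. Upstream windows, motifs and the 31-base element (148 sites in 127 genes, all found in mm9) were read from the mm9 genome. Alternatives covered scaling, the test (DESeq2 1.42.0, likelihood ratio, limma 3.58.1 voom), filters, thresholds, the plates and each 2c library left out. Subtraction of nested genes and removal of the 2 highest WT 2c values of Med17 were added after the data were seen. One item is not reported here.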

Additional observations from a re-analysis of the deposited data

Results flagged for a closer look

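The genotype difference of 4 subunit genes differed between stages by a test of the difference itself in edgeR. Against oocytes, the difference at 2c in embryos labelled matPlag1KO was -4.04 on the log2 scale for Med17 (adjusted p = 0.00355), -2.72 for Med8 (adjusted p = 0.0109) and -1.77 for Med31 (adjusted p = 0.00748). Against 8c it was -4.10 for Med17 (adjusted p = 0.00945), -2.19 for Med31 (adjusted p = 0.00257) and -1.998 for Med7 (adjusted p = 0.0379). The values of Med17 reuse the 2c embryos in which its low level was already known. The groups all held more than 10 libraries, and single libraries were not left out for these differences between stages. Each 2c library was left out in turn for the genotype comparison at 2c, as given below.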

How the results depend on the processing

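Of the 5 subunit genes called at 2c, spike-in scaling left 2 (Med17 and Med31), a fit of the 22 embryos alone called 4, plate A alone left 0, an adjusted p under 0.01 left 2, and an adjusted p under 0.1 gave 8, as did DESeq2. Leaving out 1 of the 22 embryos at a time gave 3 to 6 genes, with 3 (Med17, Med31 and Med4) without WT embryo D5 of plate A or C3 of plate B. In those fits Med17 lay between -4.80 and -3.68, Med31 between -2.12 and -1.76 and Med4 between -1.65 and -1.09, each called in all 22, Med8 between -2.49 and -1.80, called in 20, and Med11 between -1.76 and -1.25, called in 9. The difference of Med17 in CPM lay between -34.4 and -27.2. In oocytes plate B alone called 2 genes, Med26 and Med6, against 0 in both plates together. Of all genes, plate B alone called 367 higher and 96 lower in oocytes. The 28 calls from MII to 2c in WT became 15 with TMM, 15 with DESeq2's size factors and 15 in plate B alone, and the 29 in matPlag1KO became 18 and 16 with these scalings. From 2c to 8c plate A alone gave 8 of 14 calls in WT and 13 of 22 in matPlag1KO. The share of all genes called was not counted for these stage fits or at the other 2 thresholds of adjusted p (0.01 and 0.1), so these counts have no background beside them. Values that changed sign included those of Med21 from MII to 2c with the pseudogene subtracted (-3.29 in WT and -3.78 in matPlag1KO), of Med17 in oocytes in plate A alone (-0.79, adjusted p = 0.657, against 0.18), of Med17 from MII to 2c in WT with TMM (0.77 against -1.47) and of Med30 from 2c to 8c in matPlag1KO in plate A alone (1.27, adjusted p = 0.407). Med30 had 21 and 3 counts there, a ratio of 6.85 at equal spike-in counts (95% interval 2.05 to 35.9). A plate alone holds fewer embryos by construction, and the cause of the other changes was not tested. Wells shared between the plates were not taken to pair the libraries, since not every pair's correlation of the deviations from the group means was over 0.1. In oocytes, where all 14 pairs joined opposite genotypes, the median was 0.36 and the lowest -0.04 over 10154 genes, and 12 of the 14 were over 0.1 with this and with 3 other minimum levels, chosen after seeing the data. The median was 0.08 over 8 pairs at 2c and 0.15 over 12 pairs at 8c, with lowest values of -0.12 and 0.01. A replicate block by well in oocytes called 0 subunit genes, as did the fit without it, with Med17 at 0.55 (adjusted p = 0.748). The counts of Med18 and Med30 had a median of 0 in 2c embryos.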
